A study of Homo sapiens with 16 samples.

Results

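The question addressed here is whether gemcitabine and genistein acted on the transcriptome of MiaPaCa2 cells independently of each other, gene by gene. MiaPaCa2 is an established cell line from a human pancreatic ductal adenocarcinoma. It supplied 8 of the 16 libraries of the series, and all 8 were used. The cells were kept for 24 hours without drug (control), with 40 nmol/L gemcitabine, with 50 µmol/L genistein or with both drugs together (co-treatment), and each group has 2 libraries, labelled I and II. All groups come from a single cell line, and the study calls I and II biological replicates without saying whether they were separate cultures, so p-values measure the spread between these libraries. RNA was poly-A selected, and the deposited values are counts of single reads per gene.

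For each gene the interaction is the effect of gemcitabine in the presence of genistein minus its effect in the absence of genistein, on the log2 scale, which equals the effect of genistein with gemcitabine minus that without. An interaction of 0 means that the fold changes of the drugs multiply, so that the expected level in co-treatment is the gemcitabine level times the genistein level divided by the control level. A positive interaction means that co-treatment lay above this product, and a negative one that it lay below. Since the contrast uses all 4 groups, it carries the error of all of them.

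Gemcitabine is a deoxycytidine analogue that is phosphorylated by deoxycytidine kinase, is incorporated into DNA and, as its diphosphate, inhibits ribonucleotide reductase, so that replication forks stall and checkpoint and stress genes are induced. Genistein is a soy isoflavone, known as a phytoestrogen and as an inhibitor of tyrosine kinases. Immediate early genes such as EGR1 are switched on by growth factor and stress signals through the MAP kinase ERK, the serum response factor and related regulators, and are switched off again by feedback genes.

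The 8 libraries held 13101557 to 22254419 counts on genes, with a median of 15877725. The label of the line was compared with markers. The study reports HMGA2 and HOTAIR as higher in PANC1 from this same series, and the lists were chosen with earlier results known. The PANC1 markers are therefore no independent check of the label. The PANC1 markers HMGA2, HOTAIR, RYR1, CACNA1H and CRACR2B, which had 494 to 4901 counts in the PANC1 controls, had at most 4 counts in any MiaPaCa2 library. Of the epithelial markers, KRT8, KRT18 and KRT19 had 740 to 8920 counts, whereas KRT7 had at most 9 and EPCAM and CDH1 at most 2. Of the mesenchymal markers, vimentin reached 173790, whereas CDH2 had at most 1 and TWIST1 was at 0, so neither list was present as a whole. The leukocyte genes PTPRC and CD3E and the acinar and islet genes PRSS1, CPA1, AMY2A, INS and GCG were at 0 in all 8. Single genes of the other marker lists were present at low counts, CD14 with at least 29 and CDH5 with at least 21 in each library, beside PECAM1 at 0. CDH5 had 84 and 74 counts with gemcitabine, 27 and 64 with genistein and 35 and 21 in co-treatment, all below the controls, and its part in any result was not tested. In bulk RNA, fewer cells of a kind and less RNA per cell cannot be told apart.

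Of 16064 genes tested, 4 departed from the product of the fold changes at an adjusted p of at most 0.05, which is 0.0249% of those tested (0.00623% higher and 0.0187% lower, by limma-voom with Benjamini-Hochberg adjustment). Of these, 3 were lower in co-treatment than the product of the single drug effects, EGR1 and CCN1 among them, and SNHG3 was higher. The edgeR quasi-likelihood test called the same 4. Leaving out either control library or either gemcitabine library left 0 calls, with 886 to 1102 genes at an unadjusted p under 0.05, and leaving out one library of the other groups left 3 to 24. Removing a GC trend from each library gave 91 calls, the 4 among them. Over all genes the interaction had a median of -0.01, and 79.5% of the values lay within 0.4 of 0 and 95.7% within 1. The 5th and 95th percentiles were -0.50 and 0.81, with 47.8% of the values positive and 52.2% negative. At an unadjusted p under 0.05 there were 1346 genes (8.38%), 712 above the product (4.43%) and 634 below it (3.95%).

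The precision of the design limits what these values can exclude. The 95% interval of the interaction extended by a median of 0.46 to either side, and it lay within 1 of 0 on both sides for 11394 genes (70.9%) but within 0.4 for only 2118 (13.2%). Small departures were therefore not detectable for most genes with 2 libraries per group. Measured as a difference of CPM (counts relative to the library size, scaled by TMM) in place of log2 values, the departure had the opposite sign in 1710 genes (10.6%), among them 11 of the 1346 at an unadjusted p under 0.05. The 4 genes that passed kept their sign.

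The effect of gemcitabine was much alike in both backgrounds. Without genistein it changed 6263 genes (39%), 3109 higher (19.4%) and 3154 lower (19.6%), and with genistein 6625 (41.2%), 3377 higher (21%) and 3248 lower (20.2%). Scaled by library size alone the calls split into 4039 higher and 2173 lower without genistein and into 4250 and 2251 with it, while the median interaction moved by 0.00283. With the GC trends removed the split with genistein was 3143 higher and 5115 lower. These comparisons share no library. In both, 4633 genes were called in the same direction, which is 74% of the first set and 69.9% of the second, and 12 were called in opposite directions. Of the 1618 called only without genistein, 1453 had the same sign with it, and of the 1980 called only with genistein, 1800 had the same sign without it, so most genes called in a single background had the same direction in the other. Taken over genes, which share libraries and are no independent replicates, the log2 changes correlated with r = 0.789 and rho = 0.789 (n = 16064), with a slope of 0.827 by least squares and of 1.06 by orthogonal regression.

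The genistein effect was smaller and, by correlation and shared calls, less alike. Genistein changed 1833 genes without gemcitabine (11.4%), 963 higher (5.99%) and 870 lower (5.42%), and 1179 on top of gemcitabine (7.34%), 776 higher (4.83%) and 403 lower (2.51%). With the GC trends removed there were 1495 higher and 1592 lower on top of gemcitabine. Again the comparisons share no library. In both, 549 genes were called in the same direction, 30% of the first set and 46.6% of the second, and 3 were called in opposite directions, CCN1 and SNHG3 among them. Of the 1281 called only without gemcitabine, 1142 had the same sign with it. Of the 627 called only with gemcitabine, 550 had the same sign without it. Across genes the changes correlated with r = 0.467 and rho = 0.511 (n = 16064). The slope was 0.421 by least squares and 0.804 by orthogonal regression. The standard deviation of the genistein changes on the log2 scale over genes was 0.46 without and 0.41 with gemcitabine, against root mean square standard errors of 0.26 and 0.24, so error made up more of them than of the gemcitabine changes, whose standard deviations were 0.67 and 0.705 against 0.25 and 0.25. With the part of the error removed that lies on the x axis (chosen after the values were seen), the slopes were 0.958 for gemcitabine and 0.622 for genistein.

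**Figure D1:**
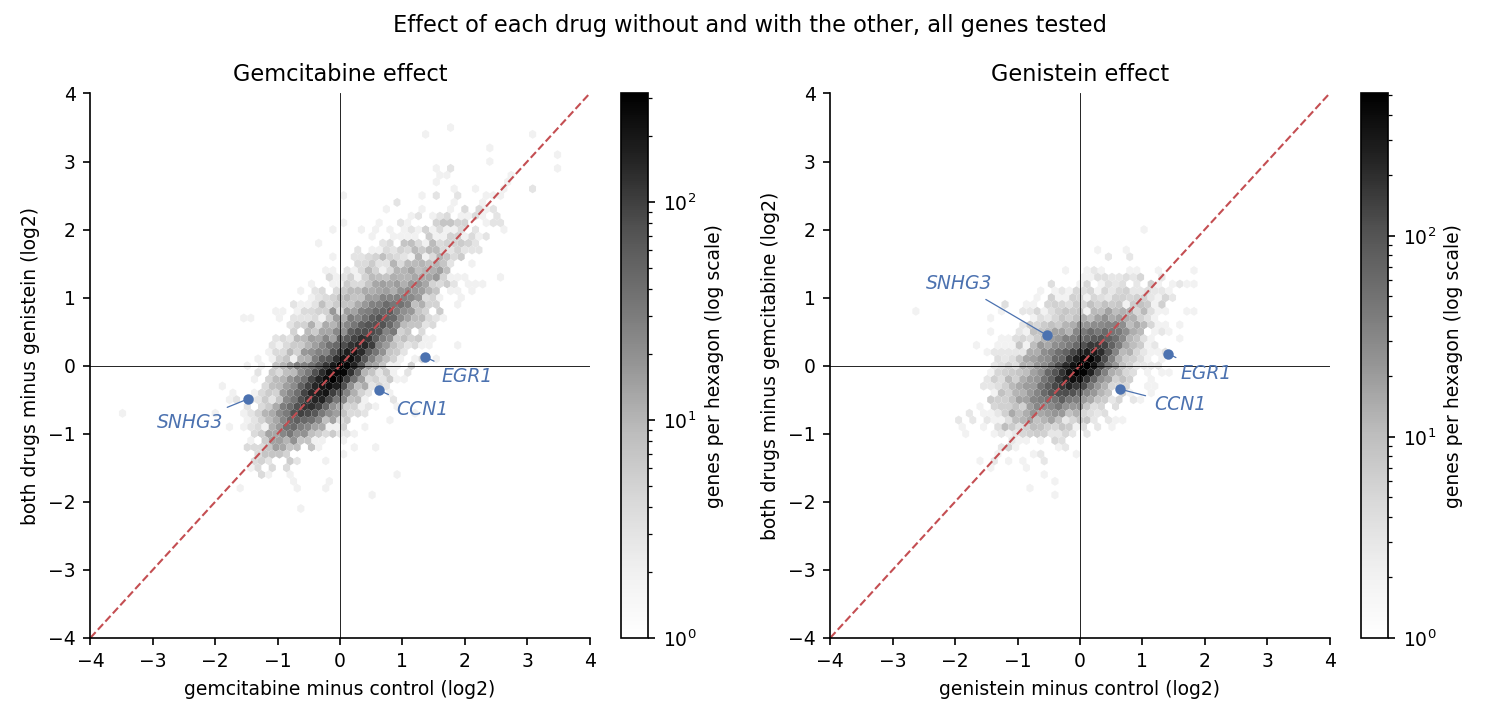
Left, log2 effect of gemcitabine without genistein (x axis) and with it (y axis). Right, log2 effect of genistein without and with gemcitabine. Hexagons count genes on a log scale, the dashed line marks equal effects, and 20 and 3 genes beyond 4 are not drawn. The left cloud follows the line (r = 0.789), the right one is flatter (r = 0.467), and EGR1 and CCN1 sit below the line and SNHG3 above it in both.

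EGR1 (ENSG00000120738, chromosome 5, 137801168 to 137804992 in GRCh37), a zinc finger transcription factor of the immediate early class, had the largest departure of the genes that passed. It had 31.4 and 29.6 CPM in the controls, 82.5 and 75.1 with gemcitabine, 83.2 and 80.3 with genistein, and 85.4 and 92.7 in co-treatment. Either drug alone thus raised it to nearly the same level, and co-treatment added little to that level. The product of the single effects would have been 211 CPM, and the measured mean of 89.0 was 0.424 of it (95% interval 0.343 to 0.523). The interaction was -1.24 (standard error 0.14, adjusted p = 0.00987, limma-voom with Benjamini-Hochberg adjustment). Gemcitabine changed EGR1 by 1.36 without genistein and by 0.13 with it, and genistein by 1.42 without gemcitabine and by 0.18 with it.

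The RefSeq sequence of the 250 bases before the EGR1 start is shown because EGR1 is the standard example of a gene with serum response elements, next to that of SNHG3, which moved the other way. Capitals mark CArG boxes (the core of the serum response element, searched by name as the 10 base consensus) and the core of the cyclic AMP response element, TGACGT, both on either strand.
EGR1 (GRCh38.p14, chr5:138465229-138465478, + strand): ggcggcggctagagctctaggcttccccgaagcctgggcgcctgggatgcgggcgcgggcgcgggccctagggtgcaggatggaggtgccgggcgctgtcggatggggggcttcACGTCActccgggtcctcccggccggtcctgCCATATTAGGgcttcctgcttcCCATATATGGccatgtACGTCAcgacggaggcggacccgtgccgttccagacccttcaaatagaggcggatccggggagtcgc
SNHG3 (GRCh38.p14, chr1:28505693-28505942, + strand): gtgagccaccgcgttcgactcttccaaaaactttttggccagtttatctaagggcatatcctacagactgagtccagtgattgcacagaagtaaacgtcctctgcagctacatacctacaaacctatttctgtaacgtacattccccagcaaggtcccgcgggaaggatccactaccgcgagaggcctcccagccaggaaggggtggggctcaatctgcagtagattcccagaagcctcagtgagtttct
The EGR1 window held 2 CArG boxes, which ended 96 and 74 bases before the start, and 2 matches to TGACGT, 136 to 131 and 67 to 62 bases before it, with no overlap between them. Of 35116 RefSeq promoters of this length, 1.16% held a CArG box and 7.1% held TGACGT. Among the 15317 promoters of tested genes the shares were 1.03% and 9.36%. Neither TGANTCA, a pattern that includes the AP-1 site but is wider, nor GGGCGG, the GC box, occurred in the EGR1 window. TGANTCA was in 6.57% of all promoters and 4.24% of those of tested genes, and GGGCGG in 42.6% and 64.3%. None of the 4 motifs occurred in the SNHG3 window. A match is a description of letters and no evidence of binding.

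CCN1 (ENSG00000142871, chromosome 1, 86046444 to 86050272), a secreted matrix-associated protein of the CCN family, had 96.3 and 92.1 CPM in the controls, 144 and 149 with gemcitabine, 149 and 147 with genistein, and 112.5 and 117 in co-treatment. Co-treatment lay between the controls and either single drug, with no overlap between libraries. Against a product of 229 CPM the mean was 114.8, a ratio of 0.501 (95% interval 0.421 to 0.597) and an interaction of -0.996 (standard error 0.12, with an adjusted p = 0.00987 in limma-voom). Both drug effects changed sign, from 0.63 to -0.36 for gemcitabine and from 0.65 to -0.35 for genistein, and each of these passed its test.

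SNHG3 (ENSG00000242125, chromosome 1, 28832492 to 28837404), a long noncoding RNA that hosts small nucleolar RNAs and shares 5.92% of its exon length with RCC1 on the same strand, had 114.7 and 111.8 CPM in the controls, 40.8 and 40.8 with gemcitabine, 76.3 and 79.7 with genistein, and 57.9 and 53.7 in co-treatment. Either drug lowered it, and in co-treatment it lay above the gemcitabine libraries and below the genistein libraries. The product would have been 28.1 CPM, so the mean of 55.8 was 1.98 times as high (95% interval 1.63 to 2.41). The interaction was 0.98 (standard error 0.13, with an adjusted p = 0.0255 in limma-voom), and the genistein effect went from -0.53 to 0.45.

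**Figure D2:**
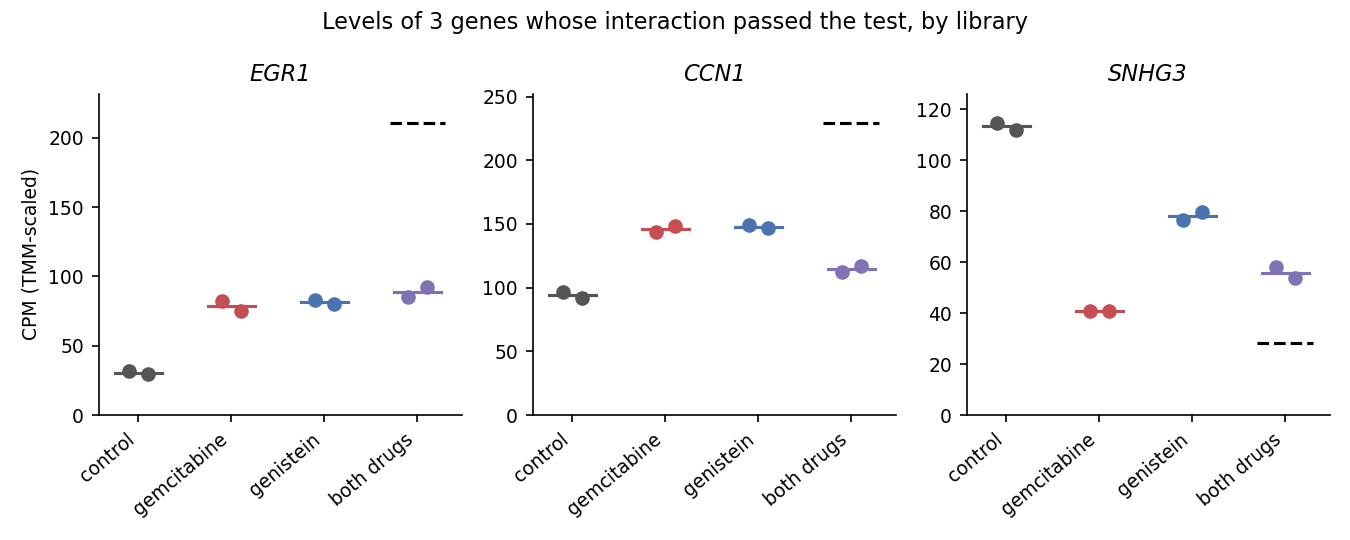
CPM of EGR1, CCN1 and SNHG3 (y axes, linear from 0) in the 2 libraries of each group (points), with group means (coloured lines) and the level in co-treatment expected from the product of the single effects (dashed line). Co-treatment lies below the dashed line for EGR1, at 89.0 against 211 CPM, and for CCN1, and above it for SNHG3, at 55.8 against 28.1.

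The genes next in order of p did not pass. Below the product were SLC20A1, a phosphate importer (-0.70), and GRAMD1B, a sterol transfer protein of the endoplasmic reticulum (-0.77). So were IER3, an immediate early gene (-0.87), TGM2, a transglutaminase (-0.65), the chemokine CXCL8 (-0.96) and the long noncoding RNA UCA1 (-0.58). LTBP2 (-0.85) and DUSP6, the phosphatase of ERK (-0.78), were below it as well. The adjusted p values of all these genes (Benjamini-Hochberg, limma-voom) were 0.0507 to 0.151. IER3 shares 32.6% of its exon length with an antisense RNA, DUSP6 28.6% and UCA1 26.1%, and since the strand setting of the counting is not stated, their reads cannot be told apart from those of their partners.

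Genistein alone raised SLC20A1 and GRAMD1B, and gemcitabine lowered both in the presence of genistein. SLC20A1 had 327 and 311 CPM in the controls, 342 and 363 with gemcitabine, 492 and 494 with genistein, and 343 and 327 in co-treatment. Genistein raised it by 0.63 alone, and its difference on top of gemcitabine was -0.07, which did not pass. GRAMD1B had 156 and 151 CPM in the controls, 128 and 140 with gemcitabine, 235 and 248 with genistein, and 125 and 123 in co-treatment.

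IER3 and DUSP6 resembled EGR1, in that each drug alone raised them and genistein on top of gemcitabine made no difference that passed. DUSP6 had 19.7 and 19.5 CPM in the controls, 38.8 and 41.3 with gemcitabine, 37.4 and 38 with genistein, and 42.6 and 47.4 in co-treatment. CXCL8 had 90.4 and 78.2 CPM in the controls, 123 and 140 with gemcitabine, 86.4 and 96.9 with genistein, and 82.6 and 66.1 in co-treatment, so gemcitabine raised it alone (0.64), while the co-treated libraries lay below the genistein libraries.

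Above the product, and also not passing, were SNHG1 and GAS5, further hosts of small nucleolar RNAs (0.88 and 0.68, the latter -0.46 on log2(FPKM + 1) values), OGT, which attaches O-linked N-acetylglucosamine to proteins (0.79), CHMP1B of the ESCRT-III complex (0.77), MAT2A, which makes S-adenosylmethionine (0.61), the angiogenic factor VEGFA (0.74), the large scaffold protein AHNAK2 (0.63), the transcription factor KLF4 (1.01), the ligand TGFB3 (1.39) and the vesicle SNARE VAMP1 (0.71). Their adjusted p values (Benjamini-Hochberg, limma-voom) again were 0.0507 to 0.151. CHMP1B shares 18.2% of its exon length with an antisense RNA, MAT2A 12.5% with GGCX and VAMP1 10.4% with TAPBPL, all on the opposite strand.

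They fell into different patterns. OGT had 628 and 594 CPM in the controls, 316 and 303 with gemcitabine, 394 and 428 with genistein, and 389 and 333 in co-treatment, so it was lowered by each drug alone, and the co-treated libraries lay above those with gemcitabine alone. VEGFA had 59.6 and 58.3 CPM in the controls, 35.6 and 34.7 with gemcitabine, 51.6 and 55.0 with genistein, and 53.7 and 53.1 in co-treatment, so gemcitabine lowered it without genistein (-0.75), and its libraries with genistein were level with those of genistein alone. VAMP1 differed in co-treatment alone, with 66.7 and 72.4 CPM in co-treatment against 41.8 to 44.5 in the other 6 libraries.

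Gene lists were read against all genes tested, of which 52.2% had a negative interaction and 47.8% a positive one, and 3.95% were lower and 4.43% higher at an unadjusted p under 0.05. Of 24 immediate early transcription factor genes, 18 had a negative and 6 a positive interaction, with a median of -0.20 against -0.01 over all genes. EGR1 passed, and at an unadjusted p under 0.05 there were 8 lower and 2 higher. KLF2, a transcription factor of the Krüppel-like family, had an interaction of -0.63 (adjusted p = 0.353, limma-voom with Benjamini-Hochberg adjustment), and KLF4 went the other way. The median effect of gemcitabine on the list was 1.3 without genistein (17 members higher, 1 lower) and 0.60 with it (13 higher, 3 lower).

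Genes of ERK feedback, the phosphatases, Sprouty proteins and ETS factors that ERK induces, had a median interaction of -0.20, with 11 of 18 negative, not far from the share over all genes, and, at an unadjusted p under 0.05, 7 lower and 2 higher. SPRY4 had an interaction of -0.47 (adjusted p = 0.211, limma-voom with Benjamini-Hochberg adjustment). Gemcitabine lowered it in both backgrounds, with effects of -0.70 without genistein and of -1.16 with it.

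The NF-kB list, subunits of this inflammatory transcription factor together with its inhibitors and targets, had a median of -0.29, with 13 of 19 tested members negative and, at an unadjusted p under 0.05, 1 higher and 7 lower. Besides CXCL8 the latter 7 included the chemokine CXCL1 (-0.69), the inhibitor NFKBIA (-0.57), the adaptor TRAF1 (-0.74) and the subunit RELB (-0.70, and -1.06 to -0.44 with each library left out), none of which passed. The gemcitabine effect on the list had a median of 0.57 without genistein and of 0.28 with it, and the genistein effect one of 0.13 without gemcitabine and of -0.21 with it.

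TGF-beta targets had a median of -0.18, with 12 of 17 negative, and held CCN1. At an unadjusted p under 0.05 the list had 4 lower and 2 higher. With each library left out in turn the medians of these 4 lists stayed negative, at -0.34 to -0.15, -0.25 to -0.13, -0.35 to -0.13 and -0.18 to -0.04. On log2(FPKM + 1) values the TGF-beta median was 0.03.

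Stress and chaperone genes had medians above 0, against 47.8% of all genes positive and 4.43% higher and 3.95% lower at an unadjusted p under 0.05. Of 25 genes of the integrated stress response, the program of ATF4 that follows amino acid shortage and protein folding stress, 19 had a positive interaction, with a median of 0.20, and 5 against 1 were higher at an unadjusted p under 0.05. The asparagine synthetase gene ASNS (0.50), which shares 49.3% of its exon length with a gene on the same strand, the serine synthesis gene PSAT1 (0.40) and the cystine transporter SLC7A11 (1.18, at no more than 10.6 CPM) did not pass (adjusted p 0.241 to 0.414, limma-voom with Benjamini-Hochberg adjustment). ASNS had 174 and 164 CPM in the controls, 137 and 153 with gemcitabine, 230 and 233 with genistein, and 285 and 278 in co-treatment, the highest of the 4 groups.

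Of 22 chaperone and unfolded protein response genes of the endoplasmic reticulum, 18 were positive, with a median of 0.14, and 3 were higher and 0 lower at an unadjusted p under 0.05. HSPA5, the main chaperone of this compartment, had 752 and 753 CPM in the controls, 732 and 751 with gemcitabine, 693 and 713 with genistein, and 955 and 911 in co-treatment. The co-treated libraries stood above the other 6, but its interaction of 0.43 (standard error 0.09, adjusted p = 0.211, limma-voom with Benjamini-Hochberg adjustment) did not pass.

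The most uniform list was that of the 13 mitochondrially encoded genes, the messenger RNAs of respiratory chain and ATP synthase subunits transcribed from the mitochondrial genome. All 13 had a positive interaction, from 0.32 to 0.89, with a median of 0.60, 12 had an unadjusted p under 0.05 and 0 passed after adjustment by limma-voom or edgeR. With DESeq2's Wald test 7 of the 13 passed, and with the GC correction 3. Gemcitabine changed them by a median of -0.37 without genistein and of 0.27 with it, and genistein by -0.42 without gemcitabine and by 0.17 with it. The 13 are read from shared precursor transcripts and have copies in the nuclear genome, so they are not 13 separate observations.

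MT-ND4, a subunit of complex I, had 6376 and 7538 CPM in the controls, 5220 and 6198 with gemcitabine, 4877 and 5435 with genistein, and 6673 and 6417 in co-treatment. The co-treated libraries lay within the range of the controls and above both single-drug groups. Its interaction was 0.63 (standard error 0.13, adjusted p = 0.192, limma-voom with Benjamini-Hochberg adjustment), that of MT-ATP6, of ATP synthase, 0.75, of MT-CYB, of complex III, 0.59 and of MT-ND5 0.61. Values were lower in replicate I than in II for 12 of the 13 genes in the controls, for all 13 with gemcitabine and for 11 with genistein, and the share of counts on these genes ran from 2.64% to 4.05% over the 8 libraries. The list stayed positive in 13 of 13 members with each library left out, with medians of 0.49 to 0.73.

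**Figure D3:**
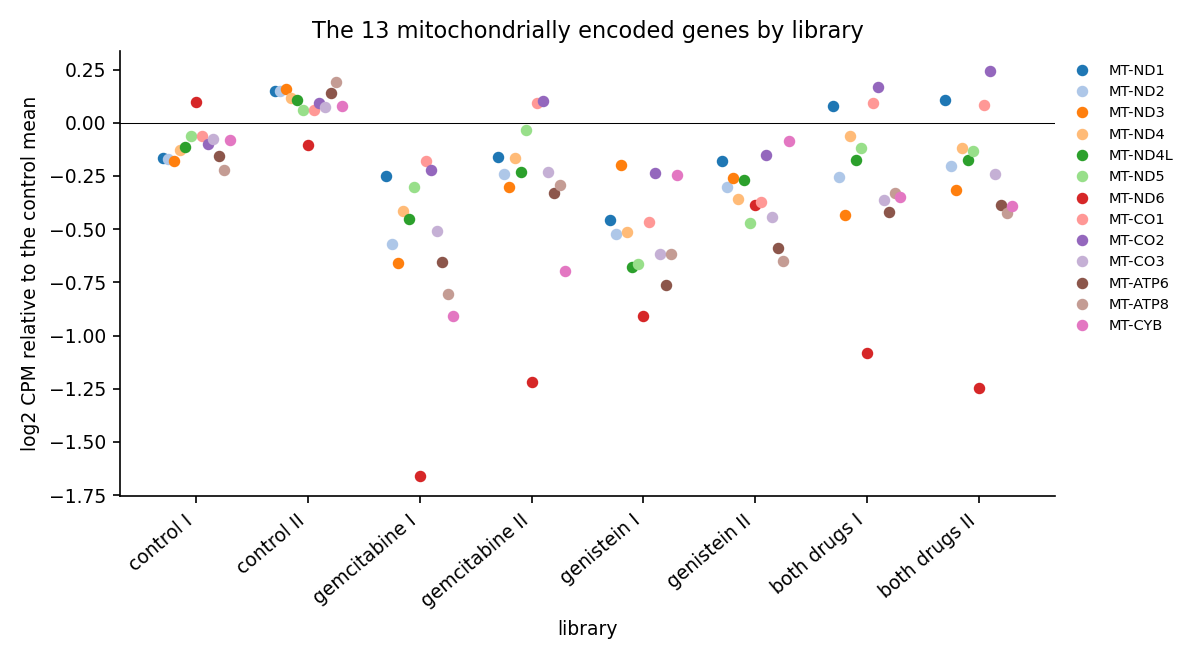
Log2 CPM of the 13 mitochondrially encoded genes relative to the mean of the control libraries (y axis) in each of the 8 libraries (x axis), a colour per gene. Most genes are below the control mean with either drug alone and closer to it in co-treatment, for MT-ND4 5220 to 6198 CPM with gemcitabine and 6673 and 6417 in co-treatment.

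SNHG3, SNHG1 and GAS5 drew attention to hosts of small nucleolar RNAs, a list defined by symbol after the values were seen. Of 24 such genes tested, 17 had a positive interaction, with a median of 0.18, and 7 were higher and 0 lower at an unadjusted p under 0.05. These counts include the 3 genes that prompted the list. Without them 14 of 21 were positive, with a median of 0.17, and 4 were higher at an unadjusted p under 0.05, against 47.8% and 4.43% of all genes. Gemcitabine changed the 24 by a median of -0.37 without genistein and of -0.14 with it. SNHG1 had 100.8 and 98.3 CPM in the controls, 47.1 and 45.4 with gemcitabine, 81.2 and 87.5 with genistein, and 75.7 and 69.2 in co-treatment.

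**Figure D4:**
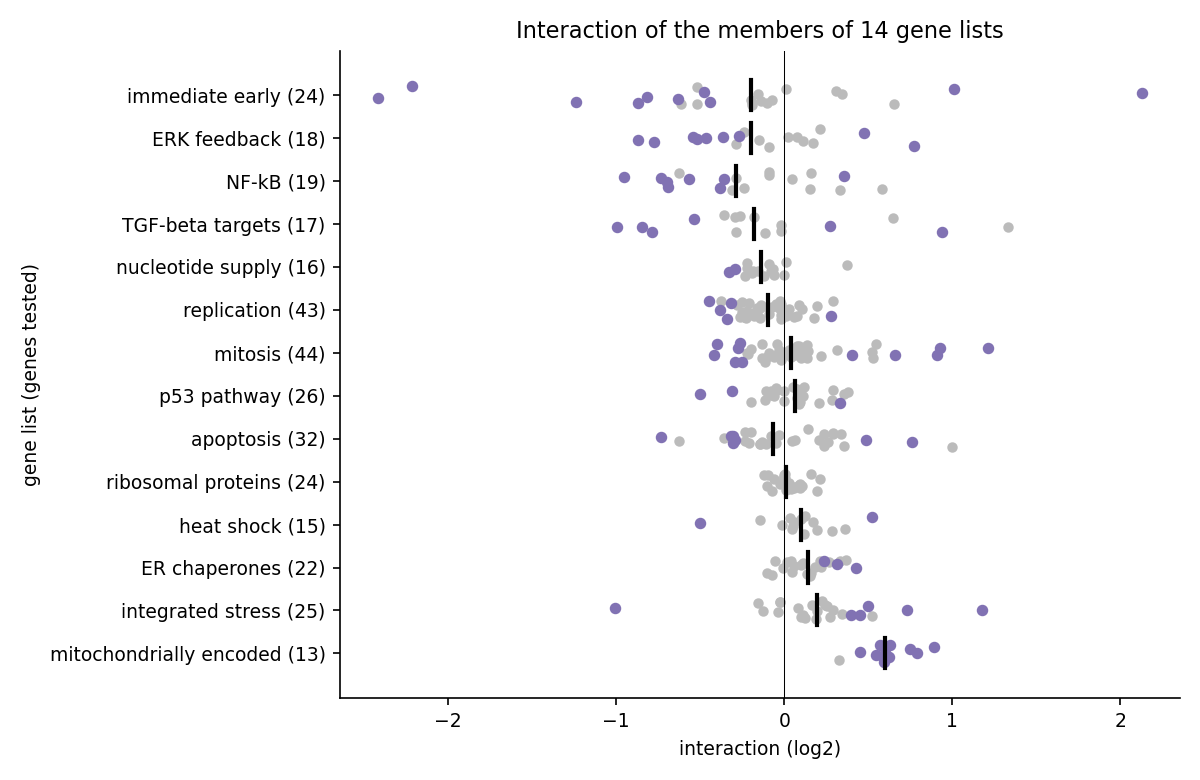
Interaction (log2, x axis) of each tested member of 14 gene lists (points, coloured at an unadjusted p under 0.05), with the list median (bar) and the number of genes tested in brackets. Medians run from -0.29 for NF-kB genes to 0.60 for the 13 mitochondrially encoded genes, which all lie to the right of 0.

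Genes of the processes that gemcitabine acts on had medians a little below 0. Of 43 genes of origin licensing and the replication fork, 33 had a negative interaction, but the median was -0.10 and no member passed. PRIM2, a primase subunit, had an interaction of -0.45, and of -0.59 to -0.28 with each library left out (adjusted p = 0.525, limma-voom with Benjamini-Hochberg adjustment). Of 16 genes of nucleotide supply and gemcitabine handling, 14 were negative, with a median of -0.14, and 2 were lower at an unadjusted p under 0.05. With the GC correction 7 were lower, but over all genes those at this level in either direction also rose, from 1346 to 2784. RRM2, the small subunit of ribonucleotide reductase, had 550 and 534 CPM in the controls, 832 and 893 with gemcitabine, 787 and 774 with genistein, and 1118 and 1061 in co-treatment, 0.877 of the product (95% interval 0.756 to 1.02). DCK, the kinase that activates gemcitabine, was one of the 2 positive members at 0.37 (95% interval of the ratio 0.986 to 1.70), and the pyrimidine synthesis gene UMPS was at -0.33.

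The medians of 44 mitosis genes, 32 genes of Fanconi and homologous recombination repair, 26 p53 pathway genes, 32 apoptosis regulators and 24 ribosomal protein genes lay between -0.06 and 0.06. CENPE, a kinesin of the kinetochore, was an exception by size, with 22 and 18.5 CPM in the controls, 4.37 and 3.88 with gemcitabine, 2.66 and 5.61 with genistein, and 2.27 and 1.69 in co-treatment. Gemcitabine lowered it by a log2 value of -2.29 and genistein by -2.28, co-treatment differed from the controls by -3.36, and the interaction was 1.21 (standard error 0.43, adjusted p = 0.466, limma-voom with Benjamini-Hochberg adjustment). With each library left out it ran from 0.78 to 1.84.

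Some genes were moved strongly by each drug alone. At an adjusted p of at most 0.05 and a change of at least 1 in the same direction by each drug alone there were 172, 82 higher and 90 lower. None had a 95% interval of the interaction within 0.4 of 0, and 48 had one within 1, against 13.2% and 70.9% of all genes tested. The single effects that chose these genes share the control, gemcitabine and genistein libraries with the interaction, so the counts are a description. The 6 of these 48 with the narrowest intervals, chosen for a small interaction and given as a description, were TUFT1, DUSP5, GFPT2, TM7SF2, IER5 and TM4SF18. For 5 of them the level in co-treatment was 0.82 to 0.951 of the product, with an interval that held 1, and for TUFT1 it was 0.672 (95% interval 0.541 to 0.836).

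IER5, an immediate early gene, had 16.3 and 17.9 CPM in the controls, 46.6 and 46.8 with gemcitabine, 33.2 and 35.3 with genistein, and 86.2 and 93.3 in co-treatment, against a product of 93.7. GFPT2, of the hexosamine pathway, rose from 22.6 and 22.8 CPM to 154 and 155 in co-treatment, against a product of 179. TM4SF18, a tetraspanin-like membrane protein, fell from 104.7 and 96.2 CPM to 37.8 and 43.9 with gemcitabine, 47.8 and 49.5 with genistein, and 20.7 and 17.1 in co-treatment, against a product of 19.8. In these 3 genes the co-treated libraries stood apart from those of either single drug.

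CDKN1A, the cyclin-dependent kinase inhibitor p21 of the p53 pathway, was raised by each drug in both backgrounds. It had 6.15 and 5.65 CPM in the controls, 48.2 and 51.7 with gemcitabine, 18.5 and 15.7 with genistein, and 96.9 and 103.5 in co-treatment, which was 0.706 of the product (95% interval 0.529 to 0.943, adjusted p = 0.516, limma-voom with Benjamini-Hochberg adjustment). In CPM the sign was the other way, since the rise in co-treatment exceeded the sum of the single rises by 39.0 CPM.

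The study names genes for its account of the drugs and of co-treatment, in part from the RNA-Seq of these samples. Their direction is therefore not independent evidence. Of 14 such genes, 10 had a negative and 4 a positive interaction, with a median of -0.06, and none passed. GPER1, the G protein-coupled estrogen receptor, had 1.95 and 1.37 CPM in the controls, 3.55 and 3.82 with gemcitabine, 1.69 and 1.37 with genistein, and 3.10 and 5.44 in co-treatment. Co-treatment was 1.26 times the product with a 95% interval of 0.633 to 2.51, so at this depth neither a departure nor its absence could be shown. Gemcitabine raised GPER1 by 1.13 without and by 1.46 with genistein.

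VDR, the vitamin D receptor, rose with each drug, from 2.98 and 3.28 CPM in the controls to 15.0 and 13.9 with gemcitabine, 8.37 and 8.29 with genistein, and 28.4 and 27.7 in co-treatment, which was 0.731 of the product (95% interval 0.523 to 1.02). ITPR1, a calcium release channel, had 12 and 11.1 CPM in the controls and 37.1 and 33.3 in co-treatment, 0.986 of the product (95% interval 0.749 to 1.298). NR4A1, an orphan nuclear receptor, had 0.548 and 1.22 CPM in the controls and 17.8 and 18.3 in co-treatment, 0.697 of the product (95% interval 0.37 to 1.31). These are the 3 genes of the list that stood highest above the controls in co-treatment.

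MUC1, a mucin, was the member furthest above the product by ratio. It had 10.2 and 11.7 CPM in the controls, 6.0 and 6.18 with gemcitabine, 3.87 and 4.15 with genistein, and 3.51 and 4.37 in co-treatment, so genistein lowered it without gemcitabine (-1.42), and its difference of -0.62 with gemcitabine did not pass. The interaction was 0.80 (standard error 0.27, adjusted p = 0.445, limma-voom with Benjamini-Hochberg adjustment), and on log2(FPKM + 1) values it was -0.22. For the addition of genistein, the study reports lower MUC1 in both its lines by RNA-Seq, and also by qPCR and western blot. Its criteria and fit differ from those used here. Other members of the list were near the product. The ratio was 0.917 for the stress factor DDIT3, 0.976 for RXRA, 0.956 for SP1, 0.871 for PARP1, 0.848 for NFKB2 and 1.16 for CASP9, each with a 95% interval that held 1. DDIT3 shares 27.2% of its exon length with MARS1 and NR4A1 10.3% with an antisense RNA, on the opposite strand.

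The direction of departures changed with the level of expression. Genes were divided into 4 bins of 4016 by their mean CPM over the 8 libraries. In the lowest bin (0.266 to 3.47 CPM) the median interaction was 0.15, and 272 genes were above and 81 below the product at an unadjusted p under 0.05. In the highest bin (59.4 to 8970 CPM) the median was -0.08, and 78 were above and 305 below. With edgeR in place of limma-voom the corresponding counts were 249 and 83 in the lowest bin and 82 and 290 in the highest. Whether this trend with level bears on the gene lists was not tested. The mitochondrially encoded genes lay above the product although all but MT-ND6 belong to the highest bin.

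**Figure D5:**
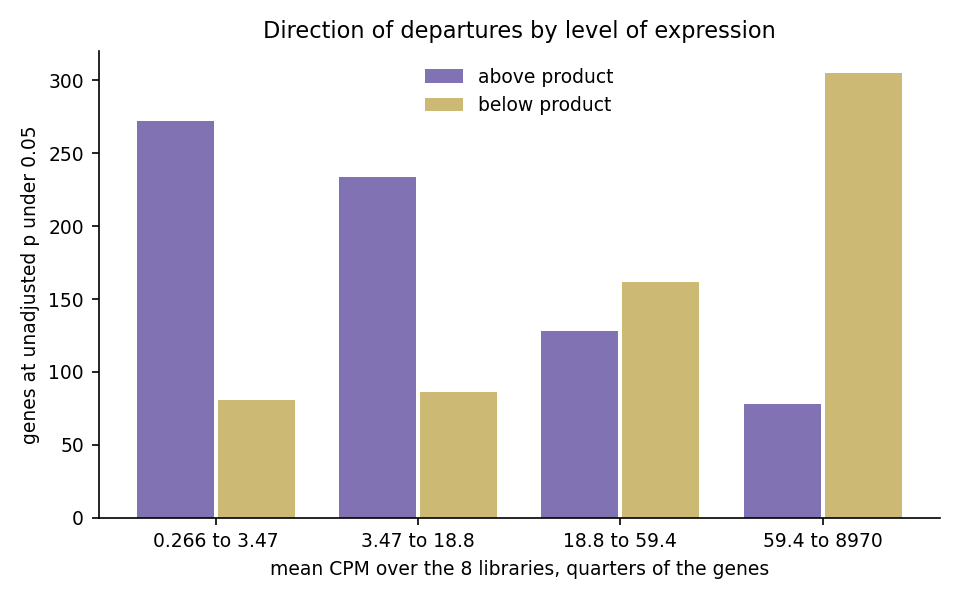
Number of genes at an unadjusted p under 0.05 (y axis) above the product of the single effects (first bar) and below it (second bar) in 4 bins of the genes by mean CPM (x axis). The counts run from 272 above and 81 below in the lowest bin to 78 above and 305 below in the highest.

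The dependence of counts on GC content also varied between libraries. Relative to the mean of the 8 libraries, log2 CPM changed per 10 percentage points of GC by -0.24 and -0.15 in the controls, by 0.15 and 0.06 with gemcitabine, by 0.00 and -0.16 with genistein and by 0.05 and 0.30 in co-treatment, so the replicates of co-treatment stood furthest apart. With each library's trend removed, 91 of the 15757 genes with a GC value passed, 40 higher and 51 lower, among them the 4 genes of the uncorrected fit. The values themselves moved little, to -1.24 for EGR1, -1.01 for CCN1 and 0.96 for SNHG3. Of the genes named so far, CXCL8, SLC20A1, OGT, GRAMD1B, SNHG1, IER3, TGM2, MAT2A, UCA1, CHMP1B, VAMP1, TGFB3, LTBP2, KLF4, DUSP6, CXCL1, AHNAK2, NFKBIA, TRAF1, VEGFA, MT-CYB, SPRY4, MT-ND5, KLF2, TUFT1 and GAS5 also passed in that fit (adjusted p 0.00267 to 0.0467, limma-voom with Benjamini-Hochberg adjustment). Most of these genes were named for a small p in the same 8 libraries, so passing in this fit adds no separate support. The list medians after this correction were -0.23 for the immediate early, -0.26 for the ERK feedback, -0.32 for the NF-kB and 0.56 for the mitochondrially encoded genes. The median of the endoplasmic reticulum chaperone list fell from 0.14 to 0.09, with 15 positive and 7 negative members. That of the mitosis genes changed sign, from 0.04 to -0.04.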

How the data were processed

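RNA-Seq of the 8 MiaPaCa2 libraries was used. The authors deposited counts, whole numbers of reads per gene without normalization, for 63677 Ensembl identifiers. Single reads of poly-A libraries (a stranded kit per the labels) were mapped to GRCh37 with TopHat2 2.0.4, Picard 1.29 was used to discard multiply aligned reads, and HTSeq 0.6.1 to count the rest, per the methods and the submitters' processing notes. The annotation release and strand setting are not given in the sources used here. The authors also deposited FPKM (Cufflinks 2.1.1), which served only for alternatives, without 128 identifiers that have several rows. Isoform values were not used.

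Counts were filtered with edgeR 4.0.16 (filterByExpr), scaled by TMM and fitted with limma-voom (limma 3.58.1, R 4.3.3), with a mean per group and 4 residual degrees of freedom. P-values were adjusted by Benjamini-Hochberg over the 16064 genes, and a gene was called at an adjusted p of at most 0.05. The authors state limma-voom, without naming a filter or scaling, and also required a log2 change of at least 0.4 and an FPKM above 1, which were left to the alternatives here. Libraries I and II of a group were never the same within counting error (chi-square divided by its degrees of freedom, 3.57 in the controls to 10.8 in co-treatment). Depth sets the precision of low genes, and their intervals are wide. The members and gene lists were chosen with earlier results of these data known.

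Named were the 12 genes per direction with the largest interaction among those called. They needed a mean of at least 100 counts in a group, and places left were filled by unadjusted p. Further named were up to 4 members per list with the smallest p, 14 genes the study names, and markers. Up to 3 genes per pattern of calls with the smallest p were added. From the genes moved at least 1 by each drug alone came the 6 with the narrowest intervals within 1 of 0. The text gives part of these, and some are not reported here. Exon overlap and GC content came from GENCODE v44 lifted to GRCh37, which has a GC value for 98.1% of tested genes. The GC correction removed a loess trend (span 0.3, degree 1) per library. Alternatives were edgeR's quasi-likelihood test, DESeq2 1.42.0, other scalings and filters, limma-trend on log2(FPKM + 1) or log2(FPKM + 0.1), a fold criterion of 0.4, all 16 libraries, the replicate block and each library left out.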

Additional observations from a re-analysis of the deposited data

Results flagged for a closer look

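For 3 genes the drug effects differed with and without the other drug, by the test of the difference itself, and they are given here with the range over the other fits. The interaction of EGR1 was -1.24, and over 21 alternative fits it ran from -1.31 to -1.16 and passed in 14. That of CCN1 was -0.996, with a range of -1.03 to -0.97, and passed in 14. That of SNHG3 was 0.98, with a range of 0.71 to 1.06, and passed in 13. The sign was kept in all 21 for each of the 3. The fold criterion and the filter on mean FPKM reuse the estimates and p-values of the main fit. The sign was therefore fixed in these settings, and passing in them adds no separate support. With 2 libraries per group no single library could be tested as an outlier.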

How the results depend on the processing

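The count of 4 genes with an interaction became 46 with DESeq2's Wald test, 7 with DESeq2 size factors, 7 with a filter on mean FPKM above 1, 0 on log2(FPKM + 1) and 1 on log2(FPKM + 0.1) values (limma-trend, 1279 and 1209 at an unadjusted p under 0.05), 91 with the GC correction, and 0 to 24 with each library left out. Same-numbered libraries had correlations of deviations of -0.262 to 0.131, so the numbers were not taken to pair them. With the replicate block 0 genes passed (1015 at an unadjusted p under 0.05), and with GC correction and block 25 did. The cause of these differences was not tested.

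On log2(FPKM + 1) and log2(FPKM + 0.1) values, gemcitabine calls were 3675 and 3635 without genistein and 4021 and 3956 with it, and genistein calls 248 and 278 without gemcitabine and about 1.1e+02 and 1 with it. For genistein without and with gemcitabine, all 16 libraries in one model gave 744 and 561, the replicate block 1100 and 688, the GC correction 3513 and 3087, and GC correction with block 2954 and 2507. With each library left out, calls ran from 3123 to 7231 and 3967 to 7104 for gemcitabine without and with genistein, and from 193 to 2983 and 139 to 2417 for genistein without and with gemcitabine.

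The sign of the interaction reversed on FPKM values (pseudocounts 1 and 0.1) for GAS5 (-0.46 and -0.46), MUC1 (-0.22 and -0.26), ITPR1 (0.92 and 1.01) and RXRA (0.027 and 0.024), and with pseudocount 1 for VDR (0.29) and NR4A1 (0.14). With each library left out the range held both signs for ITPR1 (-0.11 to 0.082), RXRA (-0.16 to 0.098), TM4SF18 (-0.21 to 0.086), SP1 (-0.19 to 0.084), NR4A1 (-1.04 to 0.082), DDIT3 (-0.26 to 0.028) and GPER1 (-0.055 to 0.72). As a difference in CPM it reversed for ITPR1 (5.93), VDR (8.38), RXRA (3.82), SP1 (9.54), NR4A1 (8.15), TUFT1 (6.04), DUSP5 (6.86), GFPT2 (43.8), TM7SF2 (21.5), IER5 (25.8), TM4SF18 (29.8) and CDKN1A (39.0). With 2 libraries per group, low genes had wide intervals, and a lone library left in a group was assumed to vary like the others.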
